A study of Mus musculus with 2 samples.

Results

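The tables list 43 miRNA entries that carry a human name (prefix hsa-miR-) with a first number of 1000 or above, out of 851 named entries and 1018 entries in all. They were chosen by name alone, leaving out miR-1291, miR-3607, miR-4454, miR-4485 and miR-5100. The data are 2 small RNA libraries of mitochondria isolated from mouse heart, 1 labelled STZ (streptozotocin, which kills insulin-producing cells and so makes mice diabetic) and 1 labelled control. Strain, age, sex, the STZ dose, the time after it and the number of hearts behind each library are not given in the labels. The series title concerns Ago2, the Argonaute protein that carries miRNAs, in diabetic cardiomyopathy.

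miRNAs are short RNAs cut from hairpin precursors and loaded onto Argonaute proteins, where the seed near their 5′ end pairs with target messages. Their numbers are given in order of registration, so early numbers hold most of the abundant and widely conserved miRNAs. Many late numbers were found by deep sequencing, stand for weakly expressed sequences, or are registered in only 1 or a few species. In a mouse sample a human name is a label that the annotation gave to a read, and no human sequence was compared here.

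The STZ library held 706860 reads assigned to listed entries and the control library 508182. Levels are in RPM, an entry's reads per 1000000 assigned reads, so a single read equalled 1.41 RPM in the STZ library and 1.97 RPM in the control library. The most abundant entry in both was the heart and skeletal muscle miRNA miR-1-3p, with 252647 RPM in the STZ library and 209319 RPM in the control library. With 1 library per group no difference has a replicate check and no p-value is given. "Higher" and "lower" compare these 2 libraries only, and every 95% interval covers counting error alone, since the labels mention no molecular identifiers and PCR copies of 1 molecule would each be counted.

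The RefSeq table of mouse miRNAs (GRCm38.p6) holds the number of 12 of the 43 entries, 10 of them under the same full name. The mouse sequences below are those of entries with reads, shown because they say what a mouse transcript of that name would look like, with the seed (bases 2 to 8) in capitals.
mmu-miR-1249-3p: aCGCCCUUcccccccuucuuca
mmu-miR-1843a-5p: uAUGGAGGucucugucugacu
mmu-miR-1843b-5p: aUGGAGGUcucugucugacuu
mmu-miR-1247-5p: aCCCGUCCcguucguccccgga
mmu-miR-1306-5p: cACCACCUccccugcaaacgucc
mmu-miR-3064-5p: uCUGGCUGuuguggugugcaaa
The 6 seeds all differ. Those of miR-1843a-5p and miR-1843b-5p are the same stretch shifted by 1 base. No other mature miRNA of the RefSeq table shares the seed of miR-1249-3p, miR-1247-5p, miR-1306-5p or either miR-1843 form, and 1 other shares that of miR-3064-5p.

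The precursor of miR-1249 is shown because it is the entry with a mouse miRNA of the same full name that had the most reads. Mir1249 lies on the minus strand at chr15:84951526-84951623 (GRCm38), overlapping an annotated exon of the protein-coding gene 5031439G07Rik on the same strand. In its 98-base hairpin the mature 3p arm, bases 58 to 79, is in capitals.
Mir1249 hairpin: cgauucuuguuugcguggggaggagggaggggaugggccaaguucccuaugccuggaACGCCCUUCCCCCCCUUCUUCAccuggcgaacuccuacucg
The mature arm is 63.6% G and C, against a median of 52.2% over the 1679 mature mouse names in the table, with 13 C and 1 G. Its run of 7 C in a row occurs in 2 of those 1679 names (0.119%).

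Of the 43 entries, 16 had a read in at least 1 library and 27 were at 0 in both. In the STZ library 11 (25.6%) were above 0 and in the control library 13 (30.2%), with 8 in both, 3 in the STZ library alone and 5 in the control library alone. A count of 0 allows a level of up to 4.24 RPM in the STZ library and 5.90 RPM in the control library (3 reads), so entries at 0 were not detectable at this depth. Human-named entries numbered below 1000 were above 0 far more often, in 282 (66.2%) of 426 for the STZ library and 263 (61.7%) for the control library. The mouse-named entries numbered 1000 and above resembled the human-named ones, with 47 (24.2%) of 194 above 0 in the STZ library and 45 (23.2%) in the control library.

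Among human names these shares did not fall evenly with rising number. For numbers 1 to 199, 72.8% of entries were above 0 in the STZ library and 69.7% in the control library. For 400 to 699 the shares were still 61.6% and 54.8% in the STZ and control libraries. For 700 to 999 they were 25.0% in each, from only 12 entries, which is close to the shares at 1000 and above. The entries on either side of the limit, miR-877-5p and miR-877-3p below it and miR-1246 above it, were all at 0 in both libraries.

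**Figure D1:**
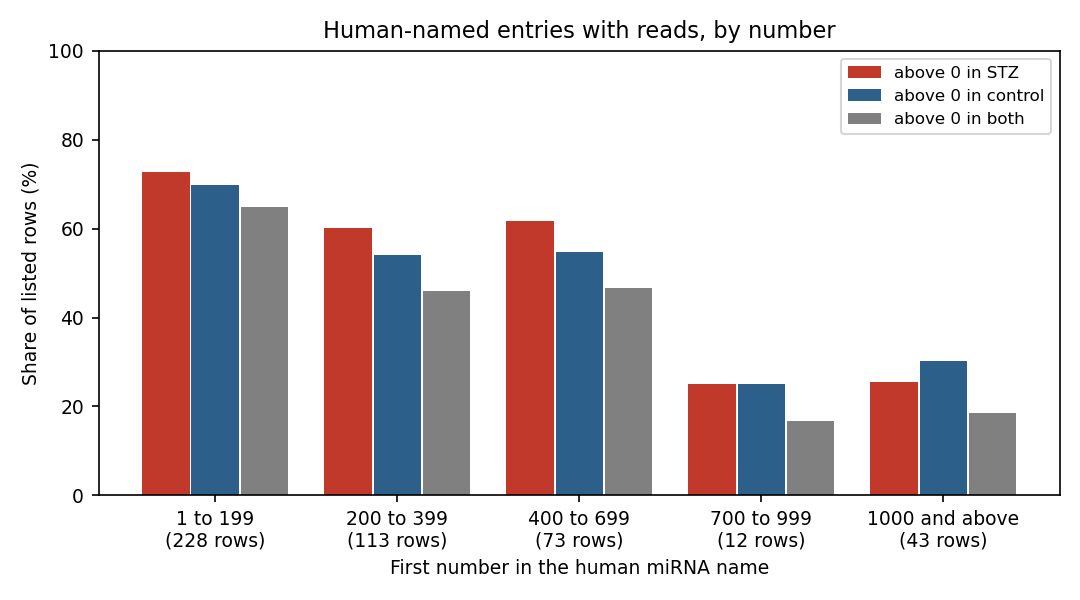
Share of listed human-named entries (%) with at least 1 read in the STZ library (red), the control library (blue) and both (grey), by the first number in the name, with the number of entries under each group. At 1000 and above the bars stand at 25.6% for STZ, 30.2% for control and 18.6% for both, against 72.8%, 69.7% and 64.9% at 1 to 199.

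Summed over all 43, the late-numbered human names held 560 reads (792 RPM) in the STZ library and 215 reads (423 RPM) in the control library. These sums were 0.0792% of STZ reads (Wilson 95% interval 0.0729 to 0.0861) and 0.0423% of control reads (0.0370 to 0.0484), a ratio of 1.87. Human-named entries below 1000 held 99.2% of STZ reads and 99.1% of control reads. Mouse-named entries at 1000 and above held 0.129% of STZ reads (0.121 to 0.138) and 0.125% of control reads (0.116 to 0.135), a ratio of 1.03.

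The summed difference came from few entries. The 5 highest entries of each library took 93.9% of these reads in the STZ library and 83.7% in the control library. Levels were higher in the STZ library for 10 entries, by 453 RPM together, and lower for 6, whose levels fell by 83.4 RPM together. The sum also depends on which numbers are left out. The left-out entries miR-5100 (113 RPM in STZ, 382 RPM in control), miR-4485-3p (279 RPM in STZ, 199 RPM in control) and miR-4454 (0 RPM in STZ, 64.9 RPM in control) together exceeded the 43 in the control library. With them the summed share was 0.118% in the STZ library and 0.107% in the control library, and the ratio dropped to 1.11.

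**Figure D2:**
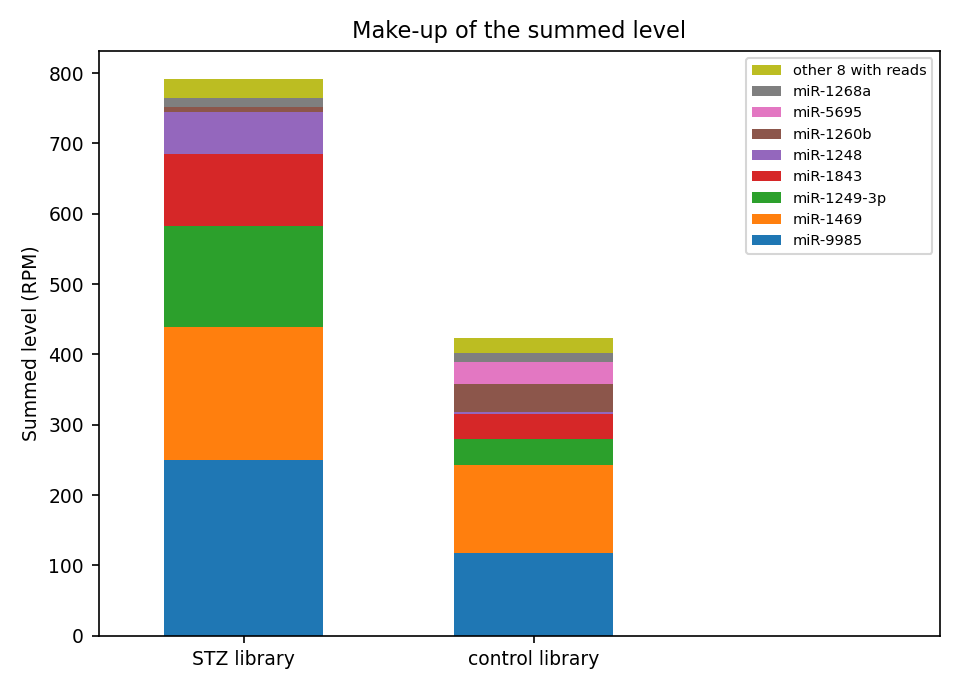
Summed level (RPM) of the human-named late-numbered entries in the STZ library (left) and the control library (right), stacked by entry. The STZ bar reaches 792 RPM and the control bar 423 RPM, and miR-9985, miR-1469, miR-1249-3p and miR-1843 form most of each.

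Entries with a mouse miRNA of the same number come first. Of these 12, 5 had reads, with 177 reads (250.4 RPM) in the STZ library and 45 reads (88.6 RPM) in the control library. They were 31.6% of all late-numbered human-named reads in the STZ library and 20.9% in the control library. The 2 that reached a mean of 10 RPM, miR-1249-3p and miR-1843, were 2-fold higher in the STZ library, as were 17.8% of the 314 named entries at that level. miR-1249-3p was singled out with its difference known, so nothing is read from this count.

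miR-1249-3p, studied mainly in human tumour cells, had 102 reads in the STZ library and 19 in the control library. Its level was 144 RPM (exact Poisson 95% interval 118 to 175) in the STZ library and 37.4 RPM (22.5 to 58.4) in the control library, and the intervals do not overlap. The STZ to control ratio was 3.86 (exact 95% interval 2.35 to 6.67). On the scale of log2(RPM + 1), used for calls, the difference was 1.92, the highest among all named entries with 100 to 299 reads over both libraries. The next among them was the mouse-named let-7j at 1.15. The rank holds only for that range, which was chosen with earlier results known. Under 100 reads larger differences occurred, such as 2.90 for the mouse-named miR-434-3p (mean 61.4 RPM) and 2.61 for the mouse-named let-7c-5p (mean 65.4 RPM). The 33 human-named entries below 1000 with 100 to 299 reads ran from -2.52 to 1.07, with a median of -0.11. miR-1249-3p was picked out with its difference already known, so these values describe it and do not test it. No mouse-named entry of miR-1249 is in the tables.

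The reads of miR-1843 are split over several names. The human-named entry, which names no arm, had 72 reads (102 RPM) in the STZ library and 18 reads (35.4 RPM) in the control library, a ratio of 2.88 (1.70 to 5.12). The mouse-named miR-1843b-5p had 40 reads in the STZ library and 19 in the control library, a ratio of 1.51 (0.856 to 2.77). The mouse-named miR-1843a-5p had 16 and 11 reads in the STZ and control libraries, a ratio of 1.05 (0.456 to 2.49). Of these 3 entries the human-named one was 2-fold apart, while the intervals of both mouse-named 5p entries include 1.

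The RefSeq sequences of the mouse 5p forms share 20 bases, in capitals here to show how little separates the names.
mmu-miR-1843a-5p: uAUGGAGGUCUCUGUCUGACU
mmu-miR-1843b-5p: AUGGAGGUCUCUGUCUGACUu
A read of these 20 bases fits either mouse name, so the assignment of reads between the mouse-named 5p entries is uncertain. The sequence and arm of the human-named entry are not known here. Setting it beside the 5p names, as in the shares and the sum that follow, is therefore an assumption. Of the reads under the human name and the mouse 5p names, 56.2% stood under the human name in the STZ library (Wilson 95% interval 47.6 to 64.5, 128 reads) and 37.5% in the control library (25.2 to 51.6, 48 reads). These intervals overlap. Summed over the 3 entries the ratio was 1.92 (1.37 to 2.73), under 2-fold. The mouse-named 3p arms gave 42 reads in the STZ library and 16 in the control library, a ratio of 1.89 (1.04 to 3.60). Mir1843a lies at chr12:80391613-80391677 on the minus strand within an intron of Dcaf5, and Mir1843b at chr1:159340358-159340423 on the plus strand within an intron of Cop1. Each overlaps an annotated scaRNA, Scarna3b and Scarna3a, RNAs that guide the modification of spliceosomal RNAs in Cajal bodies.

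The other 3 of these entries had few reads, each in 1 library. miR-1247-5p, whose gene Mir1247 (chr12:110278048-110278129) overlaps an exon of the noncoding RNA Dio3os beside the imprinted deiodinase gene Dio3, had 0 reads in the STZ library and 6 reads (11.8 RPM) in the control library. The exact 95% lower bound of how far it stood lower in the STZ library was 1.64-fold, and against the floor of 3 reads the difference was 2.78-fold. miR-1306-5p, from the gene of Dgcr8, the RNA-binding partner of Drosha that recognises miRNA hairpins, had 0 reads in the STZ library and 2 in the control library. Mir1306 (chr16:18284239-18284317) overlaps an exon of Dgcr8. miR-3064-5p, whose gene Mir3064 (chr11:106782693-106782759) overlaps an annotated exon of the RNA helicase gene Ddx5, had 3 reads in the STZ library and 0 in the control library. Neither of the last 2 passed the floor of 3 reads in either library.

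The 7 entries of this kind with no read were miR-1298-5p, miR-1306-3p, miR-3059-5p, miR-3064-3p, miR-3074-5p, miR-3074-3p and miR-6516-3p. Mir1298 lies in an intron of the serotonin receptor gene Htr2c. miR-3074-5p can be set against an abundant neighbour, because its precursors Mir3074-1 and Mir3074-2 lie antisense to Mir24-1 (chr13:63301208-63301275) and Mir24-2 (chr8:84208815-84208921). The mature forms are complementary over 20 bases, in capitals here to show that the 2 names differ in strand.
mmu-miR-3074-5p: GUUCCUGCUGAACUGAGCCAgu
mmu-miR-24-3p: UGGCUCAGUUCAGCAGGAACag
miR-24-3p had 12036 reads in the STZ library and 12606 in the control library, while miR-3074-5p had 0 in each. No read from the miR-24 stretch was therefore listed under its antisense name.

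The number of the other 31 entries is not in the RefSeq mouse table, and 11 of these had reads. They supplied 383 reads (542 RPM) in the STZ library and 170 reads (335 RPM) in the control library, which is 68.4% of all late-numbered human-named reads in the STZ library and 79.1% in the control library. The 2 highest of the 43 were among them. miR-9985 had 177 reads (250.4 RPM, 215 to 290.1) in the STZ library and 60 reads (118 RPM, 90.1 to 152) in the control library, a ratio of 2.12 (1.57 to 2.89). miR-1469 had 133 reads (188 RPM, 158 to 223) in the STZ library and 63 reads (124 RPM, 95.3 to 159) in the control library. Its ratio of 1.52 (1.12 to 2.08) was under 2-fold, and its level intervals overlap slightly. Among the 851 named entries, miR-9985 ranked 121 and miR-1469 ranked 128 by mean level.

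Several human entries are described as pieces of other noncoding RNAs or as repeats. Of the 16 such names listed, 6 are among the 43 entries and 3 had reads. Of these 3, 1 was 2-fold higher, 1 was 2-fold lower and 1 was neither, where 17.8% of the 314 named entries with a mean of at least 10 RPM were higher and 18.5% lower. Both called entries, miR-1248 and miR-1260b, reached that mean through 1 library only. The median log2 difference of the 3 was 0.10, which is the value of miR-1268a alone, against -0.02 over the 314. miR-1248 stood at 3.61 and miR-1260b at -2.32, so nothing is read from this median. miR-1248, which in human is encoded in the snoRNA SNORA81, had 42 reads (59.4 RPM) in the STZ library and 2 reads (3.94 RPM) in the control library. Its ratio of 15.1 had an interval of 3.93 to 129. miR-1260b, which resembles part of a tRNA, went the other way, with 5 reads (7.07 RPM) in the STZ library and 20 reads (39.4 RPM) in the control library, 5.56-fold lower (2.03 to 19.0). miR-1268a had 9 reads (12.7 RPM) in the STZ library and 6 reads (11.8 RPM) in the control library, a ratio of 1.08 (0.343 to 3.68). The remaining 3, miR-1246, miR-1260a and miR-1973, were at 0 in both, so the sister names miR-1260a and miR-1260b differed in whether any read was listed under them.

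miR-5695 was at 0 in the STZ library and had 16 reads (31.5 RPM) in the control library, so its STZ level was 7.42-fold lower against the floor of 3 reads, with an exact 95% lower bound of 5.36-fold. miR-12135 had 11 reads (15.6 RPM) in the STZ library and 1 read (1.97 RPM) in the control library, a ratio of 7.91 with an interval of 1.15 to 340. miR-4508 had 5 reads (7.07 RPM) in the STZ library and 0 in the control library, and the interval of its ratio includes 1. The last 3 had a single read each, miR-10400-5p in the STZ library and miR-3613-5p and miR-4510 in the control library. No role is given here for these entries, since their sequences were not compared. None of 12 listed human mirtrons (miRNAs spliced from short introns) is among the 43 entries. Nor is any of 3 listed late-numbered names of the human imprinted 14q32 cluster (miR-1185, miR-1193 and miR-1197). That list left out miR-1247, whose mouse gene overlaps Dio3os as described above. Of 15 names described as conserved between human and mouse, 5 are among the 43.

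**Figure D3:**
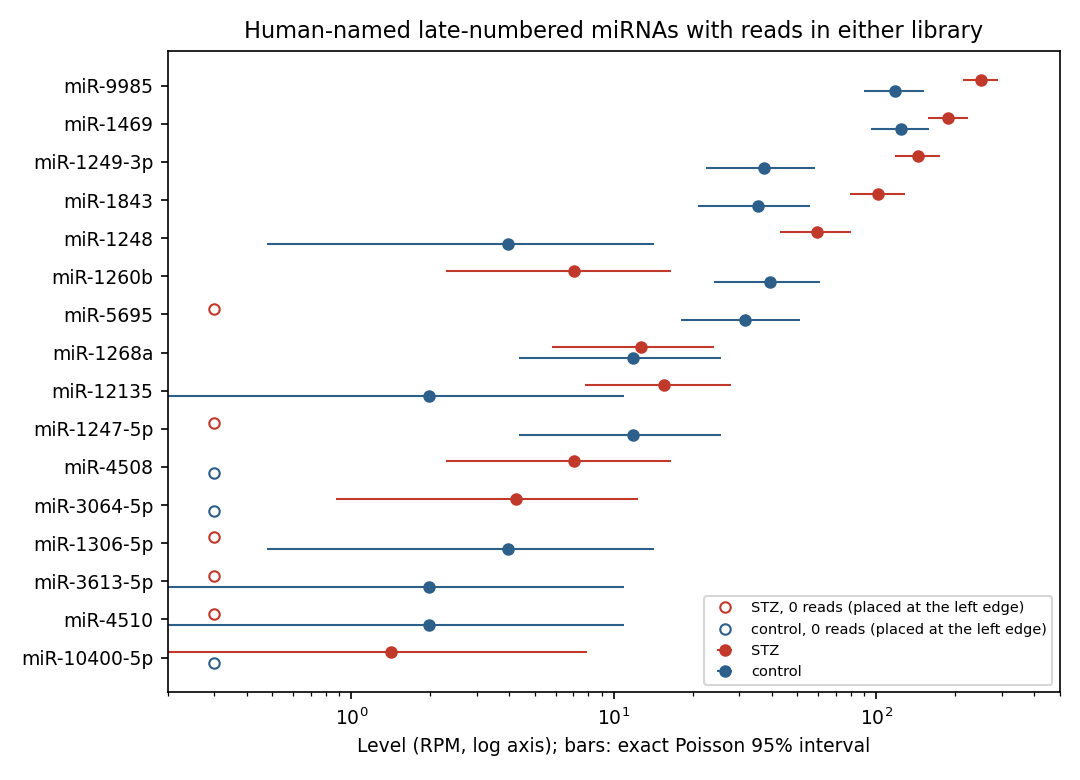
Level (RPM, log axis) of the 16 entries with reads in the STZ library (red, upper of each pair) and the control library (blue), with exact Poisson 95% intervals, and open circles at the left edge for 0 reads. miR-1249-3p stands at 144 RPM in STZ and 37.4 RPM in control with intervals apart, whereas the intervals of miR-1268a overlap almost wholly.

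By the rule of a 2-fold difference on the scale of log2(RPM + 1) at a mean of at least 10 RPM, 8 of the 43 entries could be called. Higher in the STZ library were 4 (miR-1248, miR-1249-3p, miR-1843 and miR-9985), against 17.8% of the 314 named entries at that level. Lower were 2 (miR-1260b and miR-5695), against 18.5%, and miR-1469 and miR-1268a were neither. In either direction 36.3% of the 314 named entries and 30.2% of the 232 human-named entries below 1000 at that level were called. miR-1248, miR-1260b and miR-5695 reached the minimum through 1 library only, being under 10 RPM in the other, so some difference was built in. For miR-1248 (3.94 RPM in control) and miR-5695 (0 RPM in STZ) the minimum forced a 2-fold call. For miR-1260b (7.07 RPM in STZ) it forced a difference but not a 2-fold one. None of these calls is given weight in the count. Nor is that of miR-1249-3p, which was singled out with its difference known.

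The share of calls also moves with reads. In the range of 100 to 299 reads, 2 of 3 late-numbered human entries were called (miR-1249-3p and miR-9985). The shares were 15.2% of 33 human-named entries below 1000 and 20.9% of all 43 named entries in that range. miR-1249-3p was singled out with its difference known, so nothing is read from this count. At 10 to 99 reads 4 of 6 were called, against 56.9% of 102 entries below 1000 and 55.4% of all 177 named entries. Among the 4 are miR-1248, miR-1260b and miR-5695, which reached the minimum through 1 library only, so nothing is read from this count either. These shares also include entries with a mean under 10 RPM, such as miR-12135, which could not be called. By the exact interval alone, 9 of the 16 entries with reads had a ratio whose interval excludes 1, or 56.2%, close to the 51.4% of all 481 named entries with reads and the 56.3% of 309 human-named entries below 1000. Pooled over reads the late-numbered entries thus stood near the background, but the groups differ in reads. At 1 to 9 reads the interval excluded 1 for 1 of 7 late-numbered entries, against 20.9% of 67 below 1000. At 10 to 99 reads it did for 5 of 6, against 56.9% of 102. At 100 to 299 reads it did for 3 of 3, miR-1249-3p among them, against 57.6% of 33. The groups of 7, 6 and 3 are small, and these differences were not tested.

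**Figure D4:**
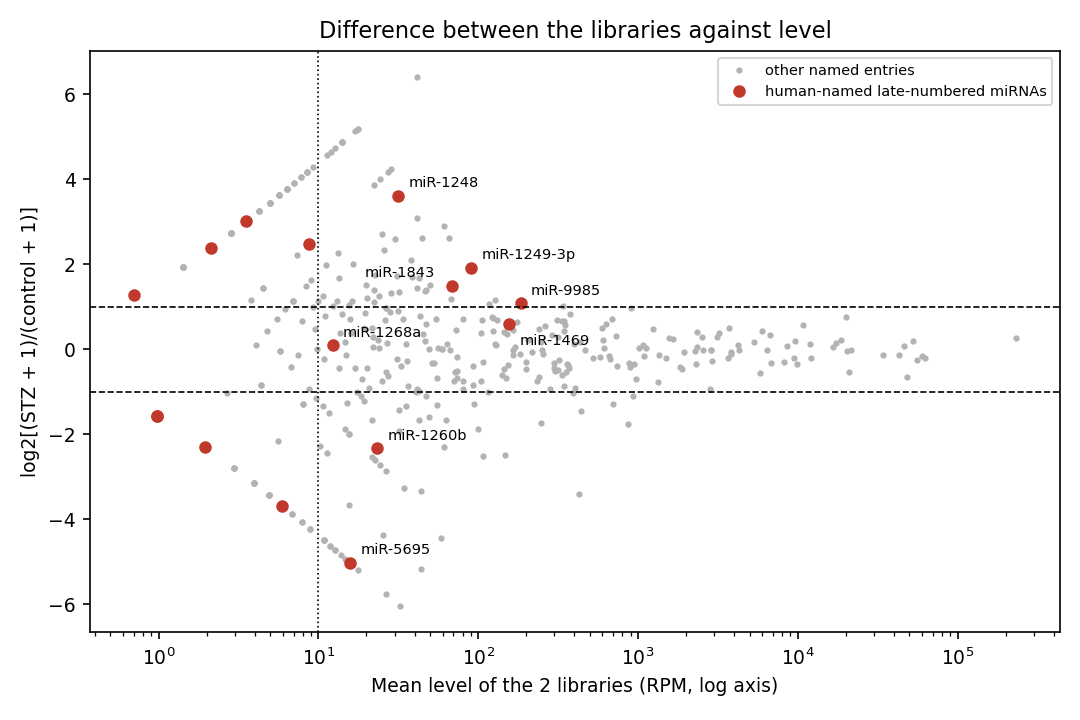
Difference between the STZ and control libraries, log2 of (RPM + 1), against the mean level (RPM, log axis), for all named entries with reads (grey) and the human-named late-numbered ones (red). Dashed lines mark 2-fold, the dotted line a mean of 10 RPM. miR-1249-3p at 1.92 and miR-9985 at 1.08 lie above the upper line, miR-5695 at -5.02 lies on the lower edge formed by entries at 0 in the STZ library, and the points of miR-3613-5p and miR-4510 coincide.

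The 2 libraries shared fewer of the late-numbered human names than of the early ones. Of those above 0 in the STZ library, 72.7% were above 0 in the control library, and of those above 0 in the control library 61.5% were above 0 in the STZ library. For human-named entries below 1000 the shares were 83.7% of the STZ list and 89.7% of the control list. Spearman's rho between the libraries was 0.54 across the 16 late-numbered entries with reads and 0.88 across the 309 below 1000, values across miRNAs, which are not replicates and share each library's depth. These pooled values cover different ranges of reads. Of the 309, 107 had 300 or more reads (rho 0.95), and 0 late-numbered entries did. At 10 to 99 reads rho was -0.26 across 6 late-numbered entries and 0.02 across 102 below 1000. At 1 to 9 reads it was -0.87 across 7 and -0.59 across 67.

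The entries also differed in reads, with a median of 13.5 over both libraries where above 0, against 166 for numbers 1 to 199. At 10 to 99 reads, 5 of 6 late-numbered entries (83.3%) and 85 of 102 entries below 1000 (83.3%) were in both libraries. At 100 to 299 reads all 3 late-numbered entries and all 33 entries below 1000 were. At 1 to 9 reads, 0 of 7 late-numbered entries and 11 of 67 (16.4%) below 1000 were in both. The groups of 6, 3 and 7 are small, and whether the number itself matters beyond reads was not tested.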

How the data were processed

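Both deposited files give a non-negative signal per entry, which the authors scaled to a sum of 1000000 RPM over 1018 entries. A note in the control file calls it TPM, per the file headers. Dividing by the step of 1 read gave whole reads for 100.0% of values, within 0.001 of a read. An unnamed row, the sum of the entries above it (96.6% of STZ, 96.5% of control), and the 167 unnamed loci stayed out of the tests. The submitters' processing notes name GRCm39 as the build. Neither the aligner nor the miRNA reference is stated in those sources, and the labels' protocols mention no molecular identifiers. RefSeq sequences and GENCODE annotation are on GRCm38 and were matched by name only.

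The design foresaw a normalized signal, so entries with a mean of at least 10 RPM and a 2-fold difference of log2(RPM + 1) were called, which understates low entries. Ratios have exact conditional binomial (Clopper-Pearson) 95% intervals. edgeR's test could not be fitted, with 1 library per group and no residual degrees of freedom. Scaling used edgeR 4.0.16 (TMM) and DESeq2 1.42.0 (median of ratios) in R 4.3.3. Other work used scipy 1.17.1, numpy 2.4.6 and pandas 2.3.3 under Python 3.11.15, and figures used matplotlib 3.10.9. The call rule and the intervals were tested on simulated reads. Entries, lists, ranges of reads and number bands were chosen with earlier results of these data known. The rule for named entries took the 10 highest, all called, the 5 highest at 0 in the other library, those with a mouse-named entry of the same number and 10 reads, and measured list members, which together name all 16 with reads.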

Additional observations from a re-analysis of the deposited data

How the results depend on the processing

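No paired analysis was possible because STZ and control have a single library each, so none could be left out either. The 4 higher and 2 lower entries became 8 and 6 with no minimum level. Only 1 was lower at a mean of 20 RPM or more, and 1 on recovered reads (at least 20 reads, ratio and interval). At 4-fold 1 was higher, and with the left-out numbers 4 were lower. The scalings and pseudocounts tried and the added interval kept both counts. No entry had a row of the same mature name to sum. Summing miR-1843 with its mouse-named 5p entries left 3 higher, and 0 rather than 1 among entries with a mouse-named row of the same number. The log2 difference of miR-1249-3p stayed between 1.82 and 1.95. At a minimum of 3 reads 8 entries were present in the control library, not 13. Thinning the STZ library to the control depth leaves an expected 10.7 entries. Summed shares were 0.0542% in STZ and 0.0305% in control without miR-9985, 0.0354% and 0.0181% without the 2 highest, and 0.0648% in STZ without miR-1249-3p. With the left-out numbers they were 0.118% and 0.107%, ratio 1.11. Spearman's rho was 0.66 with the 27 entries at 0 included. Settings with left-out numbers, recovered reads, summed miR-1843, the 2 highest removed or entries at 0 were added after seeing the data. Depth limits every entry under about 10 reads, where a few reads decide presence.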
